A study of Drosophila melanogaster with 4 samples.

Results

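Presynaptic genes measured here were shi, Rab3, Clc, Sap47 and CASK, 5 genes that act where neurons store and release transmitter. They were taken by gene symbol from the array's probe annotation, with older names updated by gene identifier. They have 7 probes among the 7558 that carry exactly 1 gene name, on an array of 13824 probes. A probe is the mean of 2 adjacent duplicate spots of one cDNA. Of the 7 probes, 6 had values on at least 3 arrays and 3 had values on all 4, against 1114 and 591 probes of the whole array. The genes were chosen with earlier results of these data known, so nothing is read from that coverage.

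The tested flies were Oregon-R wild-type Drosophila melanogaster males that fed for 3 days on medium containing 24 mg per ml of vigabatrin (VGB). The control flies were males of the same strain kept for the same 3 days on normal food (NF). All were unmated, 10 to 11 days old when moved to the test food, and kept in vials of 30. Vigabatrin, used against epilepsy, inactivates GABA transaminase and so slows the breakdown of GABA, the main inhibitory transmitter. RNA came from pooled whole heads, which hold brain, eyes, fat body and muscle together, so no ratio here is of neurons alone. In such tissue fewer cells of a type and less RNA per cell cannot be told apart. Each of 4 two-colour cDNA arrays compared 1 VGB pool with 1 NF pool of its own parallel set. The VGB pool was labelled with Cy5 for replicates 1 and 2, and with Cy3 for the dye-swapped replicates 3 and 4.

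At a synapse, vesicles filled with transmitter dock at a protein-dense active zone, fuse with the membrane when calcium enters, and are then retrieved and refilled. Rab3 is a small GTPase of the vesicle surface that takes part in bringing vesicles to release sites. The shi gene encodes dynamin, the GTPase that pinches retrieved vesicles off the membrane, and shi mutants known as shibire become paralysed when warmed because their terminals run out of vesicles. Clc encodes the clathrin light chain, part of the coat around vesicles during retrieval. Sap47 encodes a synapse-associated protein found in nearly all neuropil of the fly brain. CASK encodes a scaffold protein of the membrane-associated guanylate kinase family that binds neurexin and modulates the calcium/calmodulin kinase CaMKII.

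Each deposited value is a log ratio of Cy5 and Cy3 signals on one spot, and is read as log2 although no log base is stated. Their medians over probes were 1.035 and 1.03 on replicates 1 and 2 and 0.513 and 0.436 on replicates 3 and 4, so each array's median was subtracted. All values below are relative to that median unless stated. The sources used here do not say which way the ratio runs on the dye-swapped arrays. Means are therefore given in 2 codings. The turned coding takes the values as Cy5 over Cy3 and reverses the sign of replicates 3 and 4. The unturned coding takes all arrays as VGB over NF as they stand. If the ratio ran the opposite way on every array, every sign below would turn. Values passing the authors' spot filters covered 9.26% to 23.4% of the spots of an array, and the number of arrays limits the precision.

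The 5 genes stayed close to the middle of each array. Of their 22 probe values, 17 lay within the interquartile range of their array, 11 stood above the median and 11 below it in the deposited sign. The median absolute value was 0.12 for these probes and 0.23 for all probe values. These sets are unlike, since 6 of the 7 presynaptic probes had values on at least 3 arrays, against 8.06% of all probes. Whether this contributes to the difference was not tested. Only 5 values stood outside the interquartile range, on Sap47 (replicates 2 and 4) and CASK (replicates 1, 2 and 4).

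**Figure D1:**
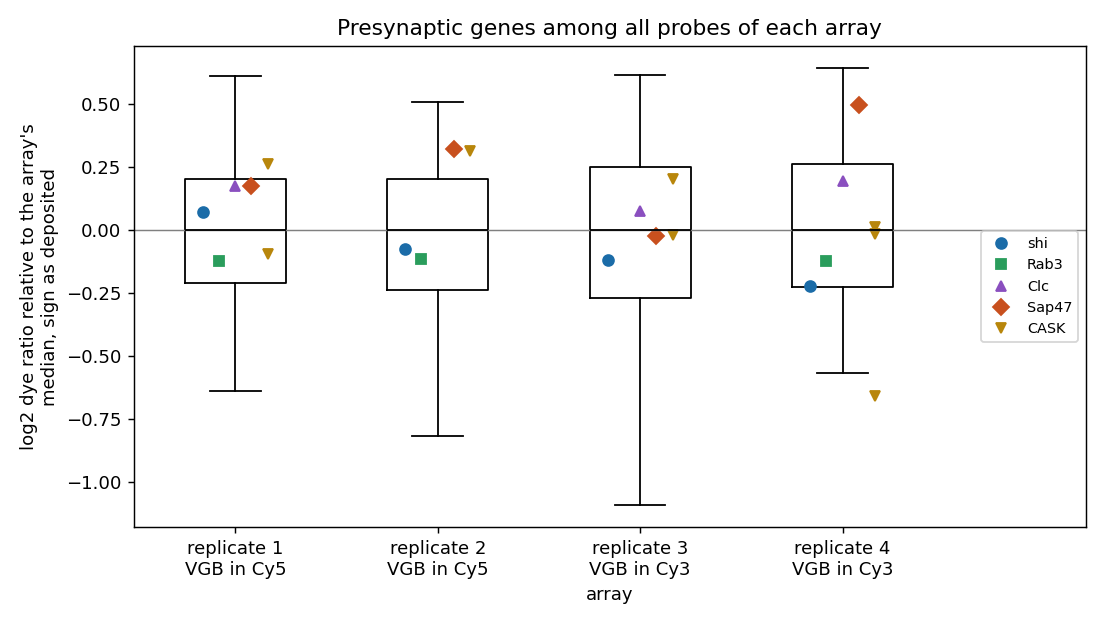
Each point is a probe of a presynaptic gene on 1 array, as the log2 dye ratio relative to the array's median in the deposited sign. Boxes span the 25th to 75th percentiles of all probes on that array, with the median as a line and whiskers at the 5th and 95th percentiles. Most points lie inside the boxes, Sap47 reaches 0.50 on replicate 4, and 1 CASK probe lies below the whisker there at -0.66.

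Neither coding gave a call for any presynaptic gene. In the turned coding limma called 0 of the 6 tested probes at an adjusted p under 0.05, where 0.359% of all 1114 tested probes were called in either direction. In the unturned coding it again called 0 of 6, where 0% of all probes were called. At an unadjusted p under 0.05 none of the 6 passed in either coding, against 8.44% of all tested probes in the turned and 14% in the unturned coding. The smallest adjusted p among the 6 was 0.99 in the turned coding and 0.44, for Sap47, in the unturned one. Of the 6 means, 3 lay above and 3 below 0 in each coding. Their median was -0.0069 in the turned coding and 0.053 in the unturned one, and over all tested probes it was -0.043 and 0.069.

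Among the retrieval genes, shi stood at 0.074 and -0.076 on replicates 1 and 2 and at -0.12 and -0.22 on replicates 3 and 4, in the deposited sign. The arrays with VGB in Cy5 lay on both sides of 0, and those with VGB in Cy3 lay below it. Its mean VGB over NF was 0.084 ± 0.12 in the turned coding (SD, n = 4, above 0 on 3 of 4 arrays; limma adjusted p = 0.99). In the unturned coding it was -0.085 ± 0.12 (SD, n = 4, below 0 on 3 of 4; limma adjusted p = 0.79). Both means are smaller than the spread between arrays, and they have opposite signs. As a ratio, the level of shi with VGB was 1.06 times the NF level in the turned coding (95% interval 0.864 to 1.30) and 0.943 times in the unturned one (0.783 to 1.13).

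Clc, the clathrin light chain gene, had values on replicates 1, 3 and 4. They were 0.18, 0.078 and 0.20 in the deposited sign, all above the array's median. Taken as they stand, they gave a mean VGB over NF of 0.15 ± 0.063 (SD, n = 3, above 0 on 3 of 3 arrays; limma adjusted p = 0.68). With replicates 3 and 4 turned the mean was -0.032 ± 0.19 (SD, n = 3; limma adjusted p = 0.997). The direction for Clc thus rests on the coding, and its 95% intervals ran from 0.763 to 1.25 times the NF level in the turned coding and from 0.891 to 1.38 times in the unturned one. Over 3 arrays the dye orders are unequal in number, so a dye effect does not cancel in these means. The same holds for Rab3 and for the CASK probe at spots 26773 and 26774. No dye term was fitted for any of these probes.

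Rab3, the vesicle GTPase, had values on replicates 1, 2 and 4. They were -0.12, -0.11 and -0.12 in the deposited sign, and so nearly equal on 3 arrays, 2 with VGB in Cy5 and 1 with VGB in Cy3. The mean VGB over NF was -0.038 ± 0.14 in the turned coding (SD, n = 3; limma adjusted p = 0.997) and -0.12 ± 0.0048 in the unturned coding (SD, n = 3, below 0 on 3 of 3 arrays; limma adjusted p = 0.73). The very small spread among the 3 arrays in the unturned coding is far below the differences between Rab3's own duplicate spots, which were 0.18, 0.41 and 0.21 on those arrays. Limma, which moderates each probe's variance toward that of the others, gave a 95% interval of 0.741 to 1.14 times the NF level for that coding and of 0.763 to 1.24 times for the turned one.

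**Figure D2:**
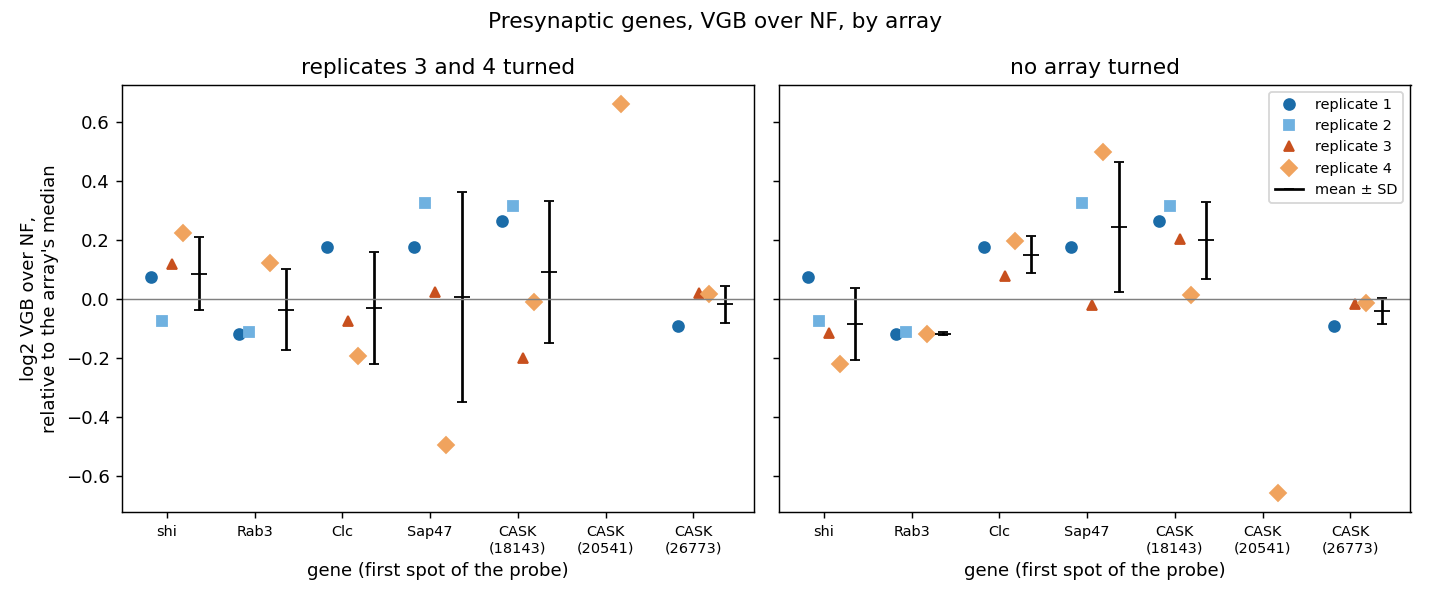
Points are the log2 ratio of VGB over NF of each presynaptic probe on each array, relative to the array's median, with replicates 3 and 4 turned on the left and no array turned on the right. Black bars are the mean ± SD over arrays for probes with more than 1 value, and numbers under CASK are the first spot of each probe. The Rab3 and Clc points lie on both sides of 0 on the left and on 1 side of it on the right.

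Of the scaffold genes, Sap47 had the widest spread between arrays of the 6 tested probes, in both codings. It stood at 0.17 and 0.32 on replicates 1 and 2 and at -0.023 and 0.50 on replicates 3 and 4, in the deposited sign. Replicate 4 was highest and replicate 3 lowest, so the arrays with VGB in Cy3 held both extremes. The mean VGB over NF was 0.0059 ± 0.36 in the turned coding (SD, n = 4, above 0 on 3 of 4 arrays; limma adjusted p = 0.997). It was 0.24 ± 0.22 in the unturned coding (SD, n = 4, above 0 on 3 of 4; limma unadjusted p = 0.087, adjusted p = 0.44). In the unturned coding Sap47 ranked 217 of 1114 by p-value, and its 95% interval was 0.973 to 1.44 times the NF level, the highest upper limit among the tested presynaptic probes. In the turned coding the interval was 0.796 to 1.27 times. Its duplicate spots differed by 0.055 to 0.11 on an array, less than the values differed between arrays.

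CASK was the only one of the 5 genes with several probes. The probe at spots 18143 and 18144 stood at 0.26, 0.31, 0.20 and 0.013 on replicates 1 to 4 in the deposited sign, above the median on all 4 arrays. Its mean VGB over NF was 0.090 ± 0.24 in the turned coding (SD, n = 4; limma adjusted p = 0.99) and 0.20 ± 0.13 in the unturned coding (SD, n = 4; limma adjusted p = 0.50). The 95% interval was 0.858 to 1.32 times the NF level in the turned coding and 0.953 to 1.38 times in the unturned one.

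The CASK probe at spots 26773 and 26774 stood at -0.094, -0.019 and -0.016 on replicates 1, 3 and 4, just below the median on each. Its means were -0.020 ± 0.064 in the turned coding and -0.043 ± 0.044 in the unturned one (SD, n = 3 for both), with limma adjusted p of 0.997 and 0.93. On the arrays they share, the first CASK probe was higher than this one by 0.36, 0.22 and 0.028 on replicates 1, 3 and 4 in the deposited sign, a mean of 0.20 ± 0.16 (SD, n = 3). With replicates 3 and 4 turned the differences as VGB over NF were 0.36, -0.22 and -0.028, a mean of 0.035 ± 0.29 (SD, n = 3). On replicate 4 the gap was smaller than the 0.18 between the duplicate spots of the probe at 26773. The difference between the probes was not tested. The remaining CASK probe, at spots 20541 and 20542, had a value on replicate 4 alone. It stood there at -0.66 in the deposited sign, at percentile 3.20 of the probes on that array, and its duplicate spots differed by 0.13. The other CASK probes were at 0.013 and -0.016 on the same array. It was not tested, and as VGB over NF it reads 0.66 in the turned and -0.66 in the unturned coding. In the turned coding this single value was 0.22 without centring and 0.92 after quantile normalization. Which stretch of CASK each cDNA covers was not analysed here.

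All 12 intervals, for 6 probes in 2 codings, included 0 on the log2 scale. Each taken singly, they bound the level with VGB, relative to the array's median, between 0.741 and 1.44 times the NF level. They do not cover values without centring, where the mean log2 ratio of Rab3 was 0.51 in the turned coding. The CASK probe at spot 20541, with 1 value, has no interval. A p above the threshold does not show that these genes were unchanged, and differences within these limits could not be told from none with 4 arrays.

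**Figure D3:**
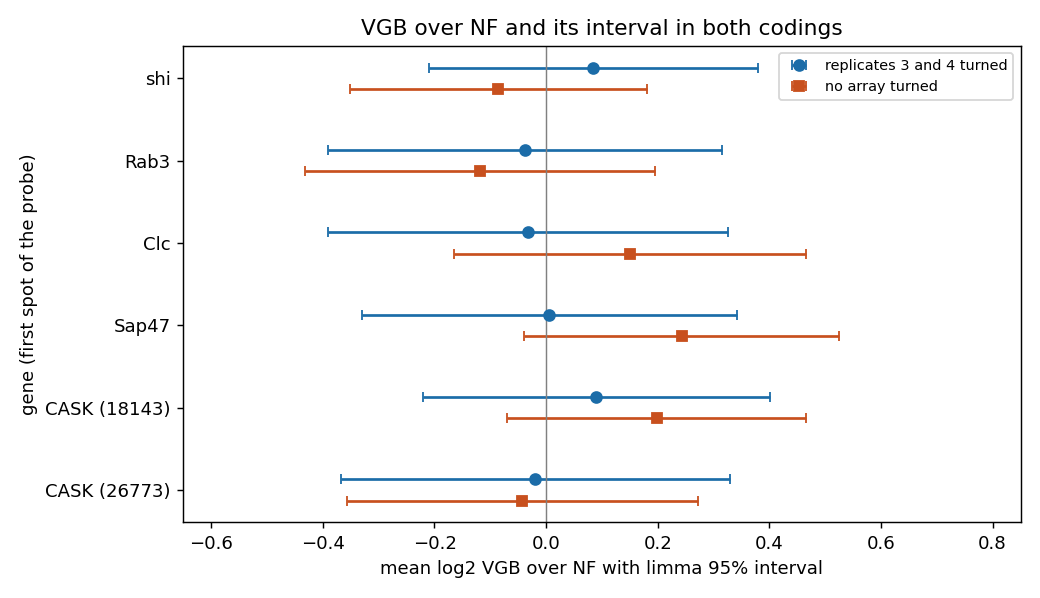
Points are the mean log2 VGB over NF of each presynaptic probe on at least 3 arrays, with limma's 95% interval, for replicates 3 and 4 turned (circles) and for no array turned (squares). Every interval crosses 0, and the interval for Sap47 with no array turned reaches furthest to the right.

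The spread between arrays also depended on the coding. All 6 tested presynaptic probes had a smaller SD in the unturned coding, as did 58.0% of all tested probes. The presynaptic SDs ran from 0.064 to 0.36 in the turned coding and from 0.0048 to 0.22 in the unturned one, and the median over all tested probes was 0.27 and 0.24. In the turned coding 0 of the 6 had 1 sign on every array measured, against 19.3% of all tested probes. In the unturned coding 4 of 6 did (Rab3, Clc and both tested CASK probes), against 28.4%.

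For the 3 probes on all 4 arrays, treatment and dye were fitted together. The dye term, positive toward Cy5 with values read as Cy5 over Cy3, was 0.24 for Sap47 (95% interval -0.014 to 0.50; limma adjusted p = 0.27). It was 0.20 for the CASK probe (-0.044 to 0.44; limma adjusted p = 0.34) and -0.085 for shi (-0.33 to 0.16; limma adjusted p = 0.73). None of the 3 was called, where 6.94% of the 591 probes were called for the dye term and 4.57% for treatment. Their treatment terms equal the turned means above, with limma adjusted p of 0.99 for Sap47, 0.84 for CASK and 0.85 for shi. The terms trade places in the unturned coding, so the same number is a dye effect in one coding and a VGB effect in the other.

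Duplicate spots of the presynaptic probes differed by a median of 0.13, with a range of 0.011 for shi on replicate 4 to 0.41 for Rab3 on replicate 2. In 5 of the 22 cases the difference was above the median duplicate difference of that array, which was 0.26 on replicate 1 and 0.14 to 0.16 on the others.

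The probes most like the presynaptic ones were found by the root mean square difference over the 4 arrays, a measure that is the same in both codings. Among 311 named probes, those nearest to Sap47 were TP53INP and NTPase, at 0.063 and 0.091, against a median distance of 0.32. Nearest to the CASK probe on all arrays were CG6321 and Taf3, at 0.10 and 0.11, and nearest to shi were Hydr2 and CG1674, at 0.076 and 0.082. The median distances were 0.35 for CASK and 0.34 for shi. The presynaptic probes were not nearest to each other. Sap47 and CASK were 0.27 apart, with 86 probes nearer to CASK. CASK and shi were 0.29 apart, with 113 probes nearer to shi. These pairs lay within the median distances, while Sap47 and shi were 0.42 apart, with 219 probes nearer to shi.

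Other genes of the vesicle cycle and of the active zone were measured sparsely. A list of the vesicle cycle held 51 current symbols, of which 24 were on the array and 17 had a value on any array. Apart from shi, Rab3 and Clc, no gene of that list had a probe with values on at least 3 arrays. A list of active zone and presynaptic scaffold genes held 34 current symbols, with 17 on the array and 12 with a value. Besides CASK and Sap47, 3 of these could be tested, and 0 of 3 were called in either coding, where 0.359% of all tested probes were called in the turned and 0% in the unturned coding. They were dlg1, which encodes the scaffold Discs large, Spn, which encodes spinophilin, a partner of neurexin at the active zone, and Sh, which encodes the Shaker potassium channel.

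The dlg1 probe on all arrays stood at -0.018 and -0.67 on replicates 1 and 2 and at -0.73 and 0.39 on replicates 3 and 4, in the deposited sign. These values disagree within both dye orders, and the mean VGB over NF was -0.086 ± 0.61 in the turned and -0.26 ± 0.54 in the unturned coding (SD, n = 4 for both), with limma adjusted p of 0.997 and 0.52. Spn stood at 0.44, 0.064, 0.026 and -0.25 on replicates 1 to 4, and averaged 0.18 ± 0.21 in the turned coding (limma adjusted p = 0.92) and 0.072 ± 0.28 in the unturned one (0.85; SD, n = 4 for both). Sh stood at 0.24, 0.27, -0.053 and 0.28, and averaged 0.070 ± 0.25 in the turned coding (limma adjusted p = 0.997) and 0.18 ± 0.16 in the unturned one (0.53; SD, n = 4 for both). Like Sap47, this Sh probe was above the median on replicates 1, 2 and 4 and just below it on replicate 3. Another Sh probe, with a value on replicate 3 alone, stood there at -0.44. Another dlg1 probe stood at -0.14 and -0.06 on replicates 3 and 4, unlike the dlg1 probe on all arrays. Neither of these further probes was tested.

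The other 21 genes of both lists had values on 1 or 2 arrays and were not tested. Over all 27 probes of the lists outside the 5 genes, 15 means lay above and 12 below 0 in the turned coding, and 14 above and 13 below in the unturned one. Fife, which encodes an active zone protein related to Piccolo and RIM, held both the highest and the lowest single value, 0.85 on replicate 1 and -1.07 on replicate 3 (deposited sign). It is named after its values were seen. It reads as 0.96 ± 0.16 VGB over NF in the turned coding and -0.11 ± 1.36 in the unturned one (SD, n = 2). The vesicle SNARE gene nSyb, also named after its values were seen, stood at 0.18 and 0.30 on replicates 1 and 4.

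**Figure D4:**
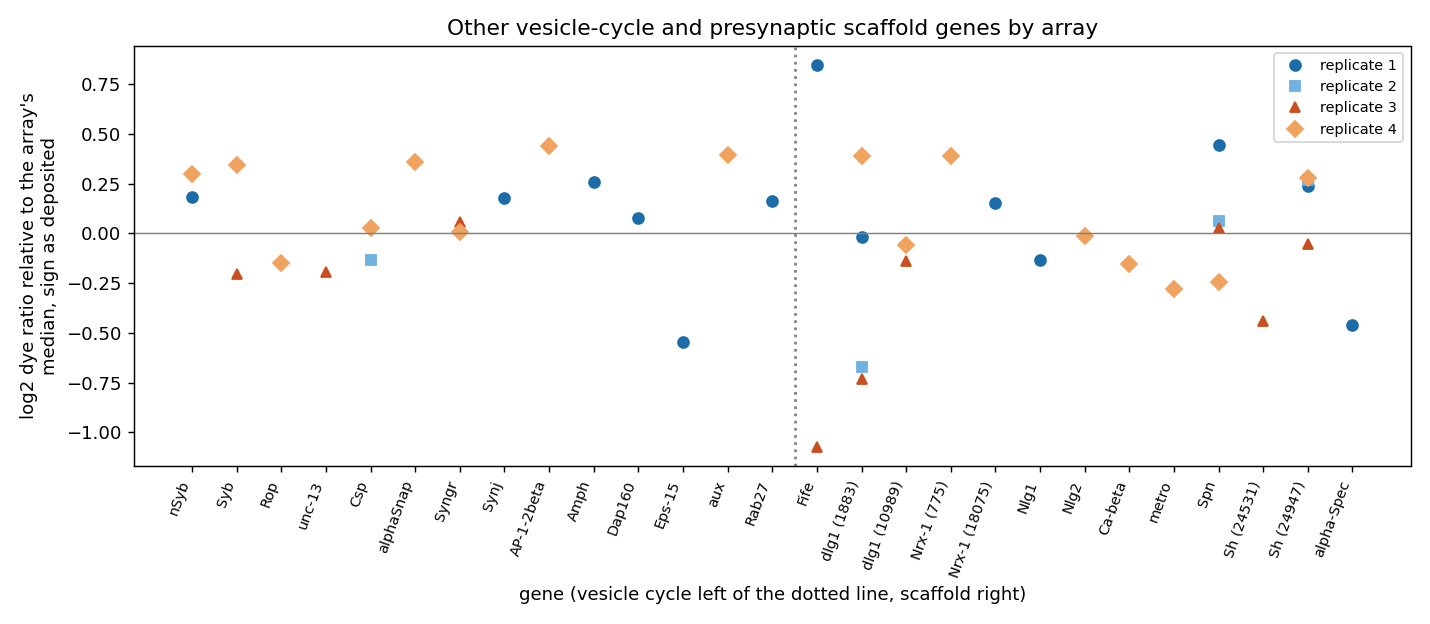
Points are the log2 dye ratios, relative to the array's median and in the deposited sign, of listed genes outside the 5 presynaptic genes. The vesicle-cycle list is left of the dotted line and the active zone and presynaptic scaffold list is right of it. Most genes have 1 or 2 points, and Fife holds the extremes at 0.85 and -1.07.

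Dye ratios give no level per gene, so the presence of a tissue in the heads could be judged only by which marker spots passed the authors' filters. Listed markers are counted here only if they were on the array with a probe of 1 gene name. Of 8 neuronal markers, 2 (nSyb and Appl) were on the array. Both had a value on some array, and 0 had values on at least 3. The counts with any value were 4 of 5 for glia and 5 of 6 for photoreceptors. They were 1 of 2 for muscle and 3 of 4 for fat body. For digestive markers the count was 1 of 1, and for male reproductive markers 0 of 1. On at least 3 arrays there were 1 glial, 4 photoreceptor, 1 muscle and 1 fat body gene, with 8 probes in all. Their VGB over NF ratios ran from -0.64 (apolpp) to 0.22 (Mlc2) in the turned coding and from -0.11 (apolpp) to 0.74 (Arr1) in the unturned one. Limma called 0 of the 8 in either coding (smallest adjusted p = 0.17 and 0.11). Over all tested probes it called 0.359% in the turned and 0% in the unturned coding, so 0 of 8 does not show the markers unchanged. The part of these markers in the presynaptic values was not tested. Whether the share of neuronal RNA differed between VGB and NF heads was not tested, since no neuronal marker had values on at least 3 arrays.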

How the data were processed

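Heads of VGB and NF flies were compared on 4 two-colour arrays. Per the labels, the authors quantified the scans in GenePix Pro and applied a ratio-based normalization in Acuity. They kept spots by saturation, flags, regression fit and signal to noise, and the deposited values are log ratios, taken here as log2. Genome build and log base are not given in the sources used here, and direction and centring are not stated, so no position is printed. Adjacent duplicate spots were averaged and each array's median over probes was subtracted. Limma 3.58.1 in R 4.3.3 (lmFit, eBayes, intercept only, two-sided, Benjamini-Hochberg at 0.05) was run over all 1114 probes on at least 3 arrays, and with treatment and dye over the 591 on all 4. The fit was also run on simulated data with independent noise and no dye effect, unlike these arrays, and nothing here rests on that run. Pools came from parallel sets, so p-values measure the spread between arrays, each with its own set. In the intercept-only fit that spread also holds any dye effect, since the 2 dye orders were not separated. Every probe of the 5 genes and every listed gene on at least 3 arrays is named, with the 2 nearest genes by root mean square difference. Of the listed names, 2 in the vesicle list and 4 in the scaffold list matched no current symbol. Members, lists, centring and codings were chosen with earlier results of these data known. Alternatives covered coding, centring, normalization, filters, probe or gene level, a dye term and leaving out each array. Scanner files were not used here, so background correction was not varied.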

Additional observations from a re-analysis of the deposited data

How the results depend on the processing

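No alternative brought a tested presynaptic probe past the threshold, over 78 combinations of probe and setting (smallest limma adjusted p = 0.44). In 63 the direction was that of the turned coding and in 15 it was the opposite. Many of the 63 could not differ, so this tally is not a measure of robustness. Filters on the number of arrays and the dye term leave a probe's mean as it was. So does gene level for a gene with a single probe, or leaving out an array on which the probe had no value. The opposite direction appeared for shi (-0.085) and Clc (0.15) in the unturned coding, and for Rab3 (0.51) and the CASK probe at spot 26773 (0.0092) without centring. Uncentred, Sap47, shi and CASK 18143 kept their sign at 0.29, 0.36 and 0.37. The opposite direction also appeared for Rab3 (0.016), Clc (0.056) and CASK 26773 (0.069) when the median of the tested probes was subtracted. It appeared for CASK 18143 after centring consecutive runs of spots of fixed length (-0.012), whose match to printed blocks is not stated in the labels. The gene-level mean of CASK (0.13) was counted as opposite to CASK 26773. That mean is over all CASK probes, including the untested probe at spot 20541, and is not a value of CASK 26773 itself. Leaving out 1 array gave ranges of -0.10 to 0.17 for Sap47, -0.12 to 0.0043 for Rab3, -0.14 to 0.049 for Clc, -0.039 to 0.017 for CASK 26773, 0.016 to 0.19 for CASK 18143 and 0.038 to 0.14 for shi. The cause of these changes was not tested.

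Over all probes, 1 call was higher and 3 lower. The counts were 0 and 0 in the unturned coding, without centring, or with at least 2 arrays, and 0 and 0 whichever 1 array was left out. They were 3 and 5 with the median of tested probes, 0 and 1 with centring by runs, 2 and 13 at gene level, and 0 higher on all 4 arrays. Lower calls numbered 5 with quantile normalization and 26 with a dye term. Dye calls toward Cy5 and Cy3 were 38 and 3, and 589 and 1 without centring. The comparison was paired within arrays, since each array holds the VGB and NF pools of 1 set as a ratio. No separate paired test was run. Depth cannot be given for dye ratios.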
